A study of Mus musculus with 6 samples.

Results

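The constitutive proteasome genes are the mouse genes for the subunits, caps, inhibitor and assembly factors of the standard proteasome. They were taken as every table row with a symbol that starts Psma to Psmg followed by a digit, leaving out Psmb8, Psmb9, Psmb10, Psme1 and Psme2 of the immunoproteasome. This gave 51 rows of 44519, of which 44 are subunits or assembly factors and 7 are pseudogenes, second rows of a subunit or a gene that is no subunit. Expression was measured by bulk RNA sequencing of GFP-positive horizontal basal cells (HBCs), the keratin-positive reserve stem cells of the olfactory epithelium. The Dox group held 3 libraries (replicates 1, 3 and 4) from mice with the Krt17-EGFP reporter and both the Cyp2g1-rtTA and TRE-TNF transgenes, labelled with 6 weeks of doxycycline, during which the transgenes drive tumor necrosis factor (TNF) and inflammation in the nose. The Ctrl group held 3 libraries (replicates 1, 2 and 4) from Krt17-EGFP mice labelled as given no doxycycline. All mice carried the reporter by which the cells were sorted. The Cyp2g1 promoter acts in supporting cells of the olfactory epithelium, so the HBCs are neighbours of the cells that make the transgene products. Transgenes and doxycycline differed together between the groups and cannot be told apart. Ages are not given in the labels.

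The proteasome is the barrel-shaped protease that degrades ubiquitin-tagged proteins in the cytosol and nucleus. Its 20S core is a stack of rings, with outer rings of alpha subunits that gate the entry and inner rings of beta subunits, of which Psmb5, Psmb6 and Psmb7 carry the active sites. The 19S cap binds ubiquitin chains, removes them, and unfolds the substrate with a ring of ATPases (Psmc genes) helped by non-ATPase subunits (Psmd genes). In many cells interferon gamma and TNF induce Psmb8, Psmb9 and Psmb10, which replace the active-site subunits in newly made particles and favour peptides for antigen presentation. The transcription factor encoded by Nfe2l1 raises proteasome genes through antioxidant response elements when proteasome activity is short.

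Expression was given as FPKM (fragments scaled for transcript length and for library size). How many reads each library had is unknown. FPKM summed to 838417, 688190 and 690592 in Dox replicates 1, 3 and 4 and to between 769766 and 837515 in Ctrl libraries, and the value of 1 fragment, read from low values, was 0.874 to 1.08 times that of Ctrl replicate 1. Of 12 HBC identity markers 7 were higher in Dox libraries and 0 lower, with summed levels of 1723 to 2161 FPKM in Dox and 390 to 907 FPKM in Ctrl libraries, and none was at 0 in any library. All 10 mature olfactory neuron markers were lower, with summed levels of 36.3 to 940 FPKM in Dox and 2698 to 5287 FPKM in Ctrl libraries, and all 7 immature neuron markers tested were lower, with 5.28 to 89.8 and 1966 to 4222 FPKM. Of all 15037 rows tested as below, 10.9% were higher and 27.2% lower. No mature neuron marker was at 0, while the immature marker Dcx was at 0 in Dox replicates 3 and 4. In bulk samples fewer cells of a type and less RNA per cell cannot be told apart, and the part of these neuron markers in the proteasome results was not tested.

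The start-site sequences of 6 members are shown first, namely Psmb5 and Psmb6 as core subunits with an active site and 4 of the members that passed the test below. Each is the 100 bases before the RefSeq transcription start (GRCm38.p6), read 5′ to 3′ on the gene's strand. For Psmc5, Psmd6, Psmd8 and Psmd10 the row bounds given below begin upstream of that start. Part of each of these stretches therefore lies inside the row. Capitals mark the core of the antioxidant response element, TGACNNNGC, and the CCAAT box, which reads ATTGG where it lies on the other strand.
Psmb5, chr14:54617996-54618095, minus strand: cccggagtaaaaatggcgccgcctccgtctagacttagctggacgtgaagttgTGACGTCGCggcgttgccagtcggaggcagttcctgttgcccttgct
Psmb6, chr11:70525257-70525356, plus strand: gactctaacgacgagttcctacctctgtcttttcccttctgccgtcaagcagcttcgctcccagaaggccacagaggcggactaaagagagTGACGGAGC
Psmc5, chr11:106256085-106256184, plus strand: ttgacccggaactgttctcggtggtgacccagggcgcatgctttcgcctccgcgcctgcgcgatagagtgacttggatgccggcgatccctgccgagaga
Psmd6, chr14:14120946-14121045, minus strand: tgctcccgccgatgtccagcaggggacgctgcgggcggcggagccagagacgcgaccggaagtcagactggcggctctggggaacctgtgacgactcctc
Psmd8, chr7:29180674-29180773, minus strand: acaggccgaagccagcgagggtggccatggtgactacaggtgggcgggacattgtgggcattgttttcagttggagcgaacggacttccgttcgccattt
Psmd10, chrX:140956712-140956811, minus strand: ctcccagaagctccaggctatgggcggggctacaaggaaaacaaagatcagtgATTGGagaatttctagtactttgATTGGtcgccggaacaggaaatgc

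Both motifs were searched on both strands from 250 bases before to 50 bases after the start, and matches to one motif did not overlap the other in the stretches shown. RefSeq windows were found for 36 of the 44 subunit and assembly genes. Of these, 6 (16.7%) held TGACNNNGC, against 12.5% of all 27025 genes with a window, and 13 (36.1%) held CCAAT, against 37.9%. These matches describe letters in the window only. Psmb5 and Psmb6 each held 1 response element core, while Psmd10 was the one of the 6 shown with CCAAT boxes in the printed stretch.

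Few constitutive proteasome genes differed between the groups. Of 51 rows, 43 reached at least 1 FPKM in at least 3 libraries and were tested, and of those 1 rose (Psmd10) and 4 fell (Psmc5, Psmd6, Psmd8 and Psmg2) in Dox libraries. These 5 are 11.6% of the member rows tested, where 38.0% of all 15037 tested rows passed, 10.9% upward and 27.2% downward (limma, Benjamini-Hochberg adjusted p below 0.05, n = 3 per group). The median log2 change (Dox minus Ctrl) was −0.13 over the members and −0.22 over all tested rows, and the median size of the change without its sign was 0.27 and 0.60. For 34 of the 43 members (79.1%) the 95% interval of the log2 change lay within −1 and 1, that is within a factor of 2 either way, which held for 35.7% of all tested rows. The groups did not overlap at 12 members (27.9%), 3 of them higher and 9 lower in Dox, against 53.0% of all tested rows.

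**Figure D1:**
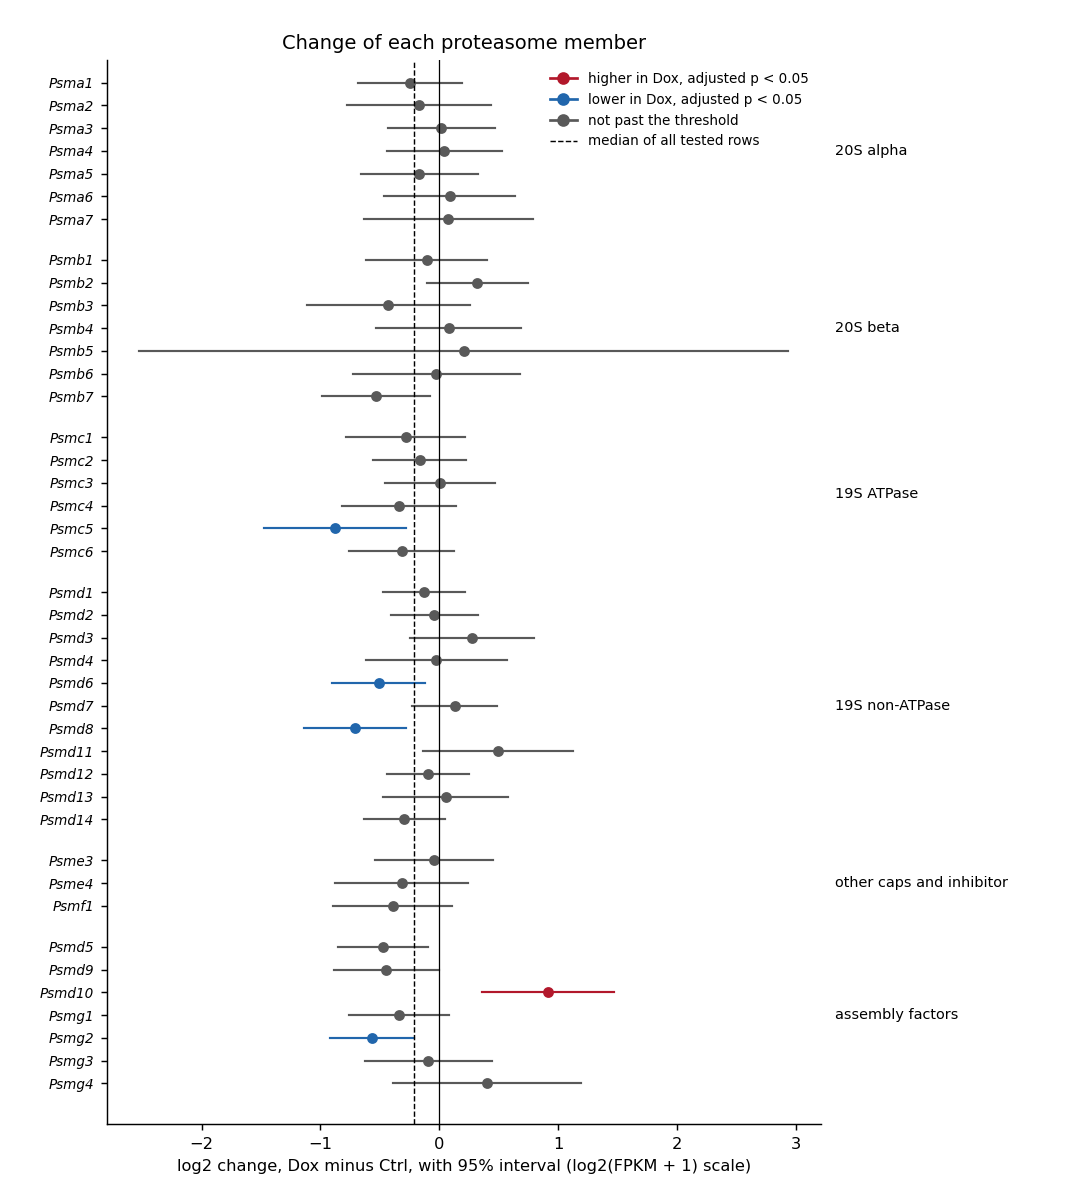
Log2 change (Dox minus Ctrl) of the 41 tested subunits and assembly factors with its 95% interval, by role, on the log2(FPKM + 1) scale. Psmd10 lies to the right and Psmc5, Psmd6, Psmd8 and Psmg2 to the left of 0 as the 5 calls, and the interval of Psmb5 is the widest, from −2.53 to 2.94.

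The calls depended on single libraries and on the scaling between libraries. Without Dox replicate 1, 1 member rose and 12 fell, against 13.7% and 33.4% of all rows in that fit, the 12 being Psma1, Psma2, Psmb3, Psmb7, Psmc4, Psmc5, Psmd5, Psmd6, Psmd8, Psmd9, Psmg2 and the non-subunit Psmc3ip. Without Dox replicate 3, 1 member rose and 0 fell, against 5.41% and 19.2% of all rows. Without Dox replicate 4, 0 rose and 0 fell, against 6.01% and 19.7%. Without Ctrl replicate 1, 0 rose and 0 fell, against 6.35% and 11.8%, and without Ctrl replicate 2, 1 rose and 0 fell, against 9.49% and 15.8%. Without Ctrl replicate 4, 0 rose and 1 fell, against 9.14% and 16.1%. After median-of-ratios scaling, which moves the median of all rows to −0.01, Psmd10 and Psmb2 were higher and 0 members lower, against 15.3% and 21.7% of all rows. Scaling to the HBC identity list moves the median of all rows to −1.44, and it gave 0 higher and 38 lower members, against 1.79% and 64.8% of all rows.

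Dox replicate 1 was the highest Dox library at most members, while the order of Dox replicates 3 and 4 varied. Dox replicate 1 was above Dox replicates 3 and 4 at 39 of 43 members (90.7%), against 51.4% of all tested rows, the exceptions being Psmd1, Psmd2, Psmd14 and Psme4. At 29 members (67.4%) Dox replicates 3 and 4 were both below every Ctrl library, against 47.3% of all tested rows. The mature neuron marker sum was 940 FPKM in Dox replicate 1, against 43.7 and 36.3 FPKM in Dox replicates 3 and 4, and the fibroblast marker sum was 41.5 FPKM, against 1056 and 1522 FPKM. In Ctrl replicates 1, 2 and 4 these sums were 2772, 2698 and 5287 FPKM for mature neurons and 525, 446 and 135 FPKM for fibroblasts. Their part in the split between the Dox libraries was not tested.

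**Figure D2:**
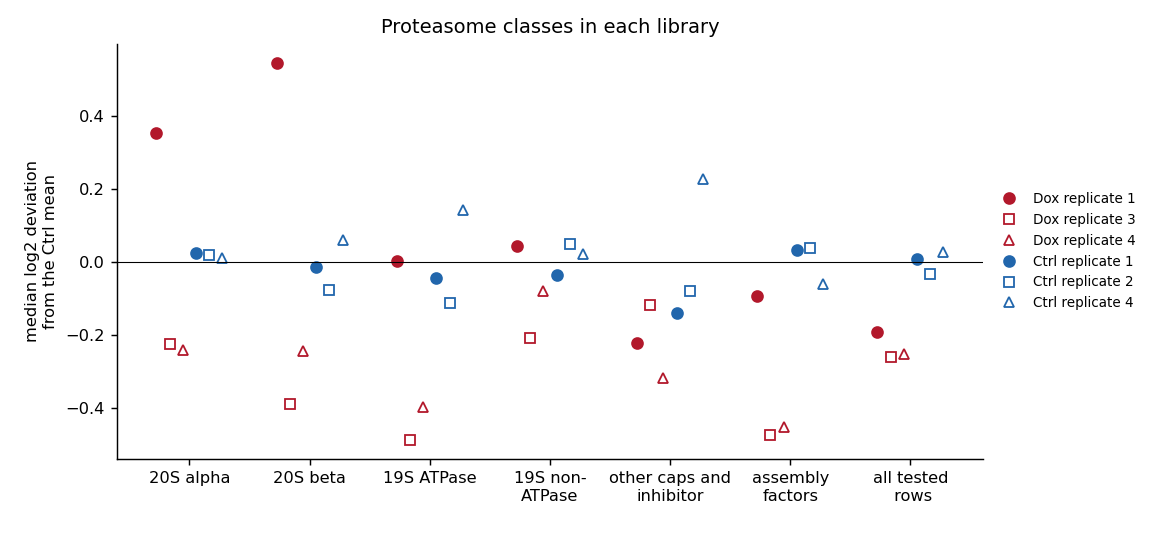
Median over the members of each class of the log2(FPKM + 1) deviation from the Ctrl mean, by library, with Dox libraries in red and Ctrl libraries in blue. For 20S alpha subunits Dox replicate 1 lies at 0.36 and Dox replicates 3 and 4 at −0.22 and −0.24, while for all tested rows the 3 Dox libraries lie between −0.26 and −0.19.

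The split between the Dox libraries was wider in the core than in the cap. The median deviation from the Ctrl mean over the 14 core subunits was 0.37, −0.37 and −0.24 in Dox replicates 1, 3 and 4, and over the 17 subunits of the 19S cap it was 0.02, −0.24 and −0.24. In Ctrl libraries the medians lay between −0.04 and 0.04 for both. Summed core levels were 5366, 2831 and 3466 FPKM in Dox replicates 1, 3 and 4 and 4829, 3427 and 3547 FPKM in Ctrl replicates 1, 2 and 4, and these sums carry the erratic Psmb5 row described below. Summed cap levels were 2929, 2152 and 2221 FPKM in Dox replicates 1, 3 and 4 and 2624, 2652 and 2909 FPKM in Ctrl replicates 1, 2 and 4. As a share of all FPKM the cap took 0.349%, 0.313% and 0.322% in Dox replicates 1, 3 and 4 and 0.331%, 0.345% and 0.347% in Ctrl replicates 1, 2 and 4, so the groups overlapped.

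**Figure D3:**
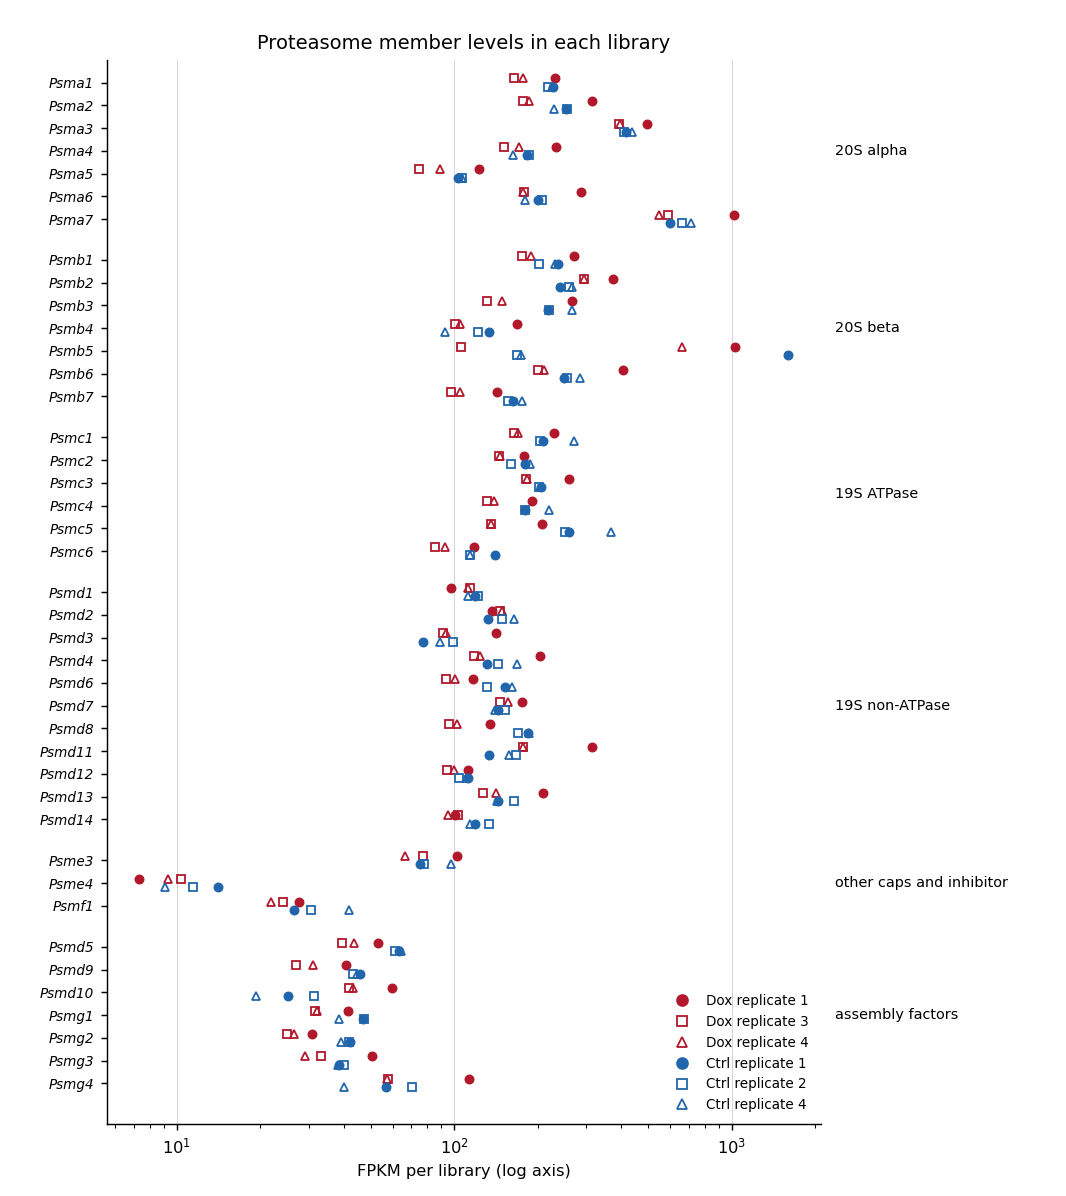
FPKM on a log axis for the 41 tested subunits and assembly factors in each of the 6 libraries, by role, with Dox libraries in red above Ctrl libraries in blue. Alpha subunits lie between 75.0 and 1025 FPKM, assembly factors between 19.4 and 113 FPKM, and Psme4 is the lowest at 7.32 to 14.1 FPKM.

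The adjusted threshold was passed by 38.0% of all tested rows. None of the 7 alpha subunits tested passed it, and none had an unadjusted p below 0.05 (limma). Their log2 changes ran from −0.25 to 0.09 with a median of 0.02, and without Dox replicate 1 the median was −0.21 and Psma1 and Psma2 fell. All 7 were higher in Dox replicate 1 than in every Ctrl library, which held for 29.2% of all tested rows. In Dox replicates 3 and 4, 6 of 7 were lower than in every Ctrl library, against 47.3% of all tested rows. As a share of all FPKM the alpha subunits took 0.323%, 0.2508% and 0.253% in Dox replicates 1, 3 and 4. They took 0.2503%, 0.2655% and 0.2454% in Ctrl replicates 1, 2 and 4. By share, Dox replicates 3 and 4 therefore lay within the Ctrl range. Psma7, the most abundant member, was at 1025, 588 and 549 FPKM in Dox replicates 1, 3 and 4 and at 598, 662 and 714 FPKM in Ctrl replicates 1, 2 and 4. It was therefore highest in Dox replicate 1 and lowest in Dox replicates 3 and 4, with the Ctrl libraries between.

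Psma1 was at 232, 164 and 177 FPKM in Dox replicates 1, 3 and 4 and at 228, 218 and 226 FPKM in Ctrl replicates 1, 2 and 4 (log2 change −0.24 ± 0.18 SE, adjusted p = 0.335, limma). Psma2 was at 315, 177 and 186 FPKM in the Dox and at 254, 255 and 229 FPKM in the Ctrl libraries of the same order (adjusted p = 0.630, limma). In both genes the Ctrl libraries lie close together and the Dox libraries on either side of them. Psma3, another abundant alpha subunit, had means of 428 ± 57.6 FPKM in Dox and 420 ± 14.6 FPKM in Ctrl libraries (SD, n = 3 each). Psma8, the testis form of Psma7, was at 0, 0.835 and 0.878 FPKM in Dox and 0.0695, 0.430 and 0.242 FPKM in Ctrl libraries and was not tested. The exons of Psma4 and Psma5 overlap those of genes on the other strand, and no source used here says how strand was handled, so their values are uncertain.

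No beta subunit passed the adjusted threshold, against 38.0% of all tested rows. Of the 7 tested, only Psmb7 had an unadjusted p below 0.05 (limma). Psmb7, which carries the trypsin-like site, was at 143, 97.7 and 105 FPKM in Dox replicates 1, 3 and 4 and at 163, 156 and 176 FPKM in Ctrl replicates 1, 2 and 4. Every Dox library was below every Ctrl library, with a log2 change of −0.53 ± 0.19 (SE, adjusted p = 0.0668, limma), and its exons overlap those of Nek6 on the other strand. Psmb3, a structural subunit, was at 266, 131 and 149 FPKM in Dox and at 218, 220 and 266 FPKM in Ctrl libraries, so the groups overlapped through Dox replicate 1 (−0.43 ± 0.29, adjusted p = 0.285, limma). Without Dox replicate 1 both fell, by 0.70 (adjusted p = 0.00743) and 0.73 (adjusted p = 0.0117) on the log2 scale (limma). Psmb2 was the one beta subunit with every Dox library above every Ctrl library, at 373, 294 and 295 FPKM in Dox and 240, 259 and 266 FPKM in Ctrl libraries (0.32 ± 0.18, adjusted p = 0.203, limma), and after median-of-ratios scaling it passed (adjusted p = 0.0374). Scaled to the HBC identity list its change was −1.05 (adjusted p = 0.0586, limma).

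Psmb6, which carries the caspase-like site, was at 405, 200 and 212 FPKM in Dox replicates 1, 3 and 4 and at 249, 255 and 285 FPKM in Ctrl replicates 1, 2 and 4. Its Dox libraries lie on both sides of the Ctrl range, and the log2 change was −0.02 with an interval of −0.73 to 0.68. Psmb5, which carries the chymotrypsin-like site, was at 1032, 105 and 665 FPKM in Dox and at 1603, 169 and 175 FPKM in Ctrl libraries. This row was erratic in both groups, and the interval of its log2 change (−2.53 to 2.94) spans 0 widely. An annotated exon of Psmb5 overlaps the microRNA gene Mir686 on the same strand (chromosome 14, 54616677 to 54616785, GENCODE M21, GRCm38), and the part of that overlap was not tested. Without Psmb5 the beta sum was 1626, 999 and 1054 FPKM in Dox replicates 1, 3 and 4 and 1241, 1215 and 1317 FPKM in Ctrl replicates 1, 2 and 4. Psmb11, the thymus-specific subunit, was at or near 0 in all libraries, with a highest value of 0.232 FPKM in Ctrl replicate 1.

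The active-site subunits were set against their immunoproteasome counterparts by ratios within each library, which do not depend on scaling. The Psmb9 to Psmb6 ratio was 0.398, 0.922 and 0.797 in Dox replicates 1, 3 and 4 and 0.0760, 0.160 and 0.0994 in Ctrl replicates 1, 2 and 4. The mean log2 ratio was 2.64 higher in Dox libraries (two-sided exact permutation test, p = 0.1, the smallest that 3 against 3 allows, 0.15 adjusted over 3 ratios). Every Dox library was above every Ctrl library.

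The Psmb10 to Psmb7 ratio was 1.57, 1.94 and 1.72 in Dox and 0.427, 1.01 and 0.186 in Ctrl libraries, a log2 difference of 2.01 (exact permutation p = 0.1, adjusted 0.15), and again the groups did not overlap. The Psmb8 to Psmb5 ratio was 0.358, 3.70 and 0.614 in Dox and 0.0300, 0.760 and 0.498 in Ctrl libraries (exact permutation p = 0.5, adjusted 0.5), and it overlapped because of the Psmb5 row. Psmb8 itself was at 369, 390 and 408 FPKM in Dox and at 48.0, 128 and 86.9 FPKM in Ctrl libraries, and Psmb9 rose by 2.57 ± 0.27 (SE, adjusted p = 0.000937, limma). Psmb10 did not pass (1.46 ± 0.52 SE, adjusted p = 0.0668, limma), though its groups did not overlap. Psme1 (adjusted p = 0.191) and Psme2 (adjusted p = 0.211, limma) did not pass either, and both overlapped between groups. The exons of Psmb9 overlap Tap1, those of Psmb8 overlap Gm20496 and those of Psme1 overlap Emc9.

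**Figure D4:**
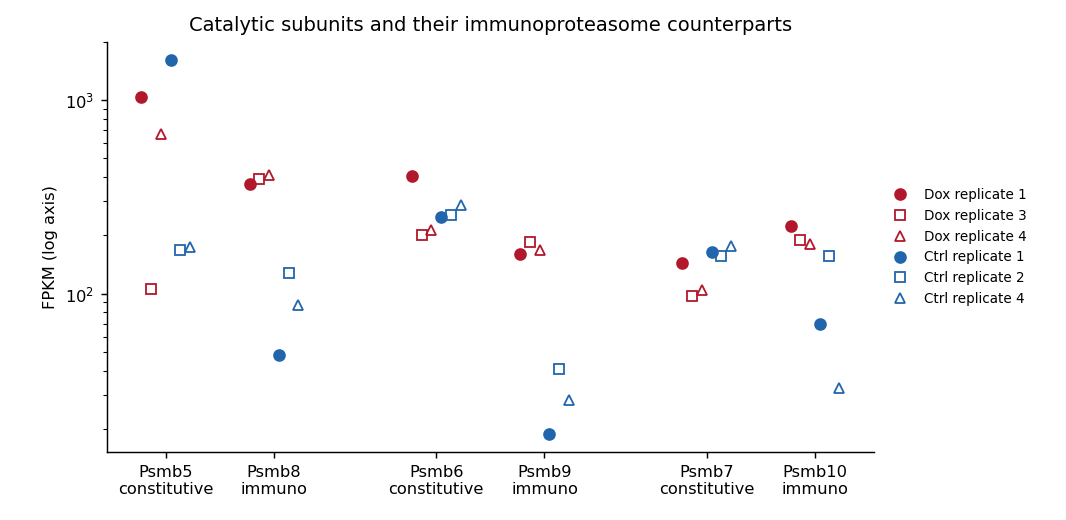
FPKM on a log axis for the 3 constitutive active-site subunits, each beside its immunoproteasome counterpart, in each library, with Dox in red left of Ctrl in blue. Psmb8 and Psmb9 are higher in every Dox library than in every Ctrl library, while Psmb6 overlaps between groups and Psmb5 ranges from 105 to 1603 FPKM.

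Of the 6 ATPases of the cap, 1 fell and 5 did not pass, and 5 of 6 had negative changes, with a median of −0.30. Of all tested rows 27.2% fell, with a median of −0.22. Psmc5 (chromosome 11, 106256154 to 106263120, mm10, row bounds that span the gene) encodes an ATPase of the ring, and its start-site stretch is given above. It was at 208, 136 and 136 FPKM in Dox replicates 1, 3 and 4 and at 259, 251 and 367 FPKM in Ctrl replicates 1, 2 and 4. The groups did not overlap, and it fell by 0.88 ± 0.25 on the log2 scale (SE, adjusted p = 0.0325, limma), the largest change of any member that fell. The call was lost when any library other than Dox replicate 1 was left out (adjusted p from 0.0630 to 0.118, limma) and after median-of-ratios scaling (−0.65, adjusted p = 0.0744).

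Psmc4, the second largest change among the ATPases, was at 191, 132 and 140 FPKM in Dox and at 180, 181 and 220 FPKM in Ctrl libraries (−0.34 ± 0.20, adjusted p = 0.228, limma). Dox replicate 1 lay within the Ctrl range and the other Dox libraries below it, and without Dox replicate 1 the gene fell (−0.50, adjusted p = 0.0358, limma). Psmc3 was the ATPase with the smallest change, at 208 ± 45.2 FPKM in Dox and 204 ± 1.36 FPKM in Ctrl libraries (SD, n = 3 each), though its exons overlap Slc39a13 on the other strand. All 6 ATPases were lower in Dox replicates 3 and 4 than in every Ctrl library, against 47.3% of all tested rows. Only Psmc3 was higher in Dox replicate 1 than in every Ctrl library, which held for 29.2% of all tested rows.

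Of the 11 non-ATPase subunits of the cap, 2 fell, 0 rose and 9 did not pass, with a median log2 change of −0.04. The shares over all tested rows were 27.2% lower and 10.9% higher. Psmd8 (chromosome 7, 29174188 to 29180701, mm10), a lid subunit added late in assembly, was at 135, 95.7 and 102 FPKM in Dox replicates 1, 3 and 4 and at 185, 170 and 186 FPKM in Ctrl replicates 1, 2 and 4. It fell by 0.71 ± 0.18 (SE, adjusted p = 0.0208, limma) and its groups were well apart. Psmd6 (chromosome 14, 14112184 to 14120984, mm10), another lid subunit, was at 117, 93.8 and 101 FPKM in Dox and at 153, 131 and 161 FPKM in Ctrl libraries, and it fell by 0.51 ± 0.17 (SE, adjusted p = 0.0490, limma). Every Dox library was again below every Ctrl library. Leaving out any 1 library except Dox replicate 1 ended both calls (adjusted p from 0.0573 to 0.0927 for Psmd8 and from 0.0708 to 0.181 for Psmd6) and after median-of-ratios scaling (−0.48, adjusted p = 0.0575, and −0.28, adjusted p = 0.197, limma).

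The other non-ATPase subunits ran from −0.29 to 0.50. Psmd11, a lid subunit, was at 314, 177 and 177 FPKM in Dox and at 133, 167 and 157 FPKM in Ctrl libraries, above Ctrl in every Dox library but not past the threshold (0.50 ± 0.26, adjusted p = 0.184, limma). Psmd14, the deubiquitinase that releases ubiquitin chains, was at 101, 103 and 95.2 FPKM in Dox and at 119, 134 and 114 FPKM in Ctrl libraries (−0.29 ± 0.14, adjusted p = 0.152, limma). Its groups did not overlap either, and the Dox libraries were close to each other, unlike those of most members. Psmd2, the scaffold that holds ubiquitin-binding factors, had means of 144 ± 6.39 FPKM in Dox and 148 ± 15.9 FPKM in Ctrl libraries, and the ubiquitin receptor Psmd4 149 ± 48.1 and 148 ± 18.8 FPKM (SD, n = 3 each). Psmd1 shares a merged row with Armc9 and Gm21972, and the exons of Psmd3 and Psmd13 overlap genes on the other strand, so these 3 are uncertain.

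None of the 3 tested genes for other caps and the inhibitor passed, at the adjusted p or at an unadjusted p below 0.05 (limma), and all 3 changes were negative. Of all tested rows 38.0% passed at the adjusted p, and the median change was −0.22, also negative. Psmf1, which encodes the inhibitor PI31, was at 27.6, 24.1 and 21.8 FPKM in Dox and at 26.6, 30.6 and 41.8 FPKM in Ctrl libraries (−0.39 ± 0.21, adjusted p = 0.187, limma). Psme4, the cap PA200, was at 7.32, 10.4 and 9.33 FPKM in Dox and at 14.1, 11.5 and 9.06 FPKM in Ctrl libraries (−0.32 ± 0.23, adjusted p = 0.327, limma). Both overlapped between groups. Psme3, a nuclear relative of the interferon-induced Psme1 and Psme2, was at 102, 77.2 and 66.6 FPKM in Dox and at 75.5, 78.1 and 97.7 FPKM in Ctrl libraries (−0.04 ± 0.21, adjusted p = 0.889, limma). Psme2b, in a row merged with 9930111J21Rik1, was at 0.490, 1.92 and 1.32 FPKM in Dox and at 0.140, 0.398 and 0.393 FPKM in Ctrl libraries and was not tested.

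The 7 assembly factors held the one member that rose and one that fell, and their median change was −0.34. Over all tested rows 10.9% rose and 27.2% fell, with a median of −0.22. Psmd10 (chromosome X, 140948429 to 140956728, mm10), also called gankyrin, is a chaperone that binds the ATPase Psmc4 during cap assembly. It was at 59.6, 41.9 and 43.4 FPKM in Dox replicates 1, 3 and 4 and at 25.2, 31.4 and 19.4 FPKM in Ctrl replicates 1, 2 and 4, with every Dox library above every Ctrl library. It rose by 0.91 ± 0.23 (SE, 95% interval 0.36 to 1.47, adjusted p = 0.0216, limma). The call was lost without Dox replicate 4 (adjusted p = 0.0526), Ctrl replicate 1 (adjusted p = 0.0821) or Ctrl replicate 4 (adjusted p = 0.0613), and scaled to the HBC identity list the change was −0.43 (adjusted p = 0.369, limma).

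The other cap chaperones among the members, Psmd5 and Psmd9, had negative changes and did not pass. Psmd5 was at 53.1, 39.6 and 43.5 FPKM in Dox and at 63.4, 61.2 and 64.6 FPKM in Ctrl libraries (−0.48 ± 0.16, adjusted p = 0.0545, limma), and Psmd9 at 40.7, 27.0 and 31.0 FPKM in Dox and 45.7, 43.2 and 44.8 FPKM in Ctrl libraries (−0.45 ± 0.18, adjusted p = 0.102, limma). Neither gene overlapped between groups, so among these cap chaperones Psmd10 lay above and Psmd5 and Psmd9 below the Ctrl range. Without Dox replicate 1 both fell (adjusted p = 0.0123 for Psmd5 and 0.0149 for Psmd9, limma). The exons of Psmd9 overlap Gm26745 on the other strand.

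The Psmg genes encode chaperones that build the rings of the core. Psmg2 was at 30.9, 24.9 and 26.6 FPKM in Dox replicates 1, 3 and 4 and at 42.0, 41.7 and 39.3 FPKM in Ctrl replicates 1, 2 and 4. It fell by 0.57 ± 0.15 (SE, adjusted p = 0.0245, limma) with no overlap, and the call was lost without Dox replicate 3 or 4 or Ctrl replicate 1 or 2 (adjusted p from 0.0804 to 0.112) and after median-of-ratios scaling (−0.34, adjusted p = 0.0976, limma). Its partner Psmg1, in a row merged with Brwd1, was at 41.3, 31.5 and 32.0 FPKM in Dox and at 47.1, 47.4 and 38.5 FPKM in Ctrl libraries (−0.34 ± 0.18, adjusted p = 0.177, limma). Psmg3, in a row merged with Gm26938 and Tmem184a, was at 50.4, 33.0 and 29.0 FPKM in Dox and at 38.6, 40.0 and 38.1 FPKM in Ctrl libraries. Psmg4, which pairs with Psmg3, was at 113, 57.8 and 57.3 FPKM in Dox and at 56.8, 70.4 and 40.0 FPKM in Ctrl libraries (0.40 ± 0.33, adjusted p = 0.376, limma). Psmg3 and Psmg4 overlapped between groups, with Dox replicate 1 the highest library for both.

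Genes that work with the proteasome were read from a list of 25 cofactors, of which 24 were matched and tested. Of these 1 rose, 2 fell and 21 did not pass, with a median log2 change of −0.09. Of all tested rows 38.0% passed, 10.9% upward and 27.2% downward, with a median of −0.22. Nfe2l1, the transcription factor of proteasome genes named above, was at 137, 161 and 159 FPKM in Dox replicates 1, 3 and 4 and at 46.3, 85.9 and 27.4 FPKM in Ctrl replicates 1, 2 and 4. It rose by 1.65 ± 0.39 (SE, adjusted p = 0.0158, limma) with no overlap, a call that was lost without Dox replicate 3 (adjusted p = 0.0532) or Ctrl replicate 1 (adjusted p = 0.0691). Scaled to the HBC identity list its change was 0.29 (adjusted p = 0.542, limma). Its relative Nfe2l2 was at 135 ± 12.7 FPKM in Dox and 168 ± 32.9 FPKM in Ctrl libraries (SD, n = 3 each, adjusted p = 0.266, limma).

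Zfand2a, a stress-induced proteasome partner, was at 8.77, 10.97 and 11.9 FPKM in Dox and at 21.3, 16.1 and 27.8 FPKM in Ctrl libraries, and it fell by 0.95 ± 0.24 (SE, adjusted p = 0.0217, limma). Ufd1, which brings ubiquitin-tagged proteins to the Vcp unfoldase, was at 69.5, 66.4 and 75.5 FPKM in Dox and at 99.8, 93.6 and 128 FPKM in Ctrl libraries, and it fell by 0.59 ± 0.17 (SE, adjusted p = 0.0340, limma). In both the Dox libraries were below all Ctrl libraries, and both calls were lost after median-of-ratios scaling (adjusted p = 0.0606 and 0.151) and without Dox replicate 3 or Ctrl replicate 1 or 4, and that of Ufd1 also without Dox replicate 4 or Ctrl replicate 2. The maturation factor Pomp was at 485, 297 and 306 FPKM in Dox and at 387, 394 and 404 FPKM in Ctrl libraries. Dox replicate 1 was its highest Dox library, as for the tested core subunits.

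Among ubiquitin and ubiquitin-activating genes, the polyubiquitin gene Ubb was at 1211, 811 and 723 FPKM in Dox replicates 1, 3 and 4 and at 1519, 1262 and 2138 FPKM in Ctrl replicates 1, 2 and 4 (−0.84 ± 0.34, adjusted p = 0.0938, limma), and without Dox replicate 1 it fell (adjusted p = 0.0209). Uba1, which activates ubiquitin, was at 80.3, 61.7 and 63.2 FPKM in Dox and at 80.6, 88.6 and 94.7 FPKM in Ctrl libraries (adjusted p = 0.129, limma).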

How the data were processed

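Bulk RNA sequencing covered 6 libraries of sorted HBCs, 3 Dox and 3 Ctrl. The submitters' processing notes name TopHat2 2.1.1, Cuffdiff 2.2.1, FastQC 0.10.1, bcl2fastq and mm10, without settings. What the authors deposited are FPKM values; the table's name also calls them raw counts, but 99.98% of values above 0 are not whole (tolerance 1e-09), so no count model was used. Row starts lie 1 below those of GENCODE M21 for 18546 of 22878 rows compared and are printed 1 higher.

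Values were tested as log2(FPKM + 1), whose pseudocount of 1 understates changes of low genes, with limma 3.58.1 (trend option, R 4.3.3) keeping rows that reached 1 FPKM in 3 or more libraries. P-values were adjusted by Benjamini-Hochberg over all 15037 rows, with no covariate and no rescaling. The fit was tested on simulated data. The labels do not tie libraries to animals, and the spread behind each p-value may therefore be technical.

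The members and lists were chosen with earlier results of these data known. By rule, library values are given for Psmb5, Psmb6, Psmb7, Psma8, Psmb11, the assembly factors, members past the threshold and the pair with the largest change in each class. Psma7, Psmb2, Psmd11, Psmd14, Psme3, Pomp and the members given by their means were chosen after their values were seen. Of 112 symbols on the cofactor, ubiquitin, immunoproteasome and 11 marker lists, 2 stayed unmatched, and merged rows were used. One gene of the ubiquitin list is not reported here. Alternatives were another pseudocount, no filter, 4 scalings, the replicate number as a block, each library left out and, added after the data were examined, the omission of Ctrl replicate 4 and Dox replicate 1 together.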

Additional observations from a re-analysis of the deposited data

How the results depend on the processing

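Over all tested rows, 1635 were higher and 4083 lower; quantile normalization gave 2658 higher, scaling to the HBC identity list 269 and 9750, the replicate block 744 and 2246, omission of Ctrl replicate 4 and Dox replicate 1 together 2529 higher, and single omissions 795 to 2016 higher and 1609 to 4924 lower. Members counted 1 higher and 4 lower. No filter gave 2 lower, against 17.0% of all rows in that fit, upper-quartile scaling 2 lower, against 23.7%, and quantile normalization 2 lower, against 19.1%. Median-of-ratios scaling gave 2 higher and 0 lower, against 15.3% and 21.7%. HBC scaling gave 0 and 38, against 1.79% and 64.8%, and the replicate block 0 and 0, against 4.95% and 14.9%. Single omissions gave 0 to 1 higher and 0 to 12 lower, with the shares of all rows given above. The omission of both libraries gave 16 of 43 lower, against 32.7% of all rows in that fit. Of 24 cofactors tested 1 was higher and 2 lower, against 10.9% and 27.2% of all rows. Median-of-ratios gave 2 and 0, against 15.3% and 21.7%, and upper quartile 2 and 1, against 13.1% and 23.7%. Quantile normalization gave 2 and 1, against 17.7% and 19.1%, and HBC scaling 0 and 19, against 1.79% and 64.8%. The replicate block gave 0 lower, against 14.9%. Single omissions gave 0 to 2 higher and 0 to 3 lower, and the omission of both libraries 3 and 6, against 19.8% and 32.7%.

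Member medians moved to 0.10 with median-of-ratios scaling and −1.48 with HBC scaling. Class medians with HBC scaling were −1.36 (alpha), −1.40 (beta), −1.67 (ATPase), −1.41 (non-ATPase), −1.56 (other caps) and −1.68 (assembly). With median-of-ratios scaling they moved to −0.07 (ATPase), 0.19 (non-ATPase), −0.11 (other caps) and −0.11 (assembly), with upper-quartile scaling to 0.11 (non-ATPase), and with quantile normalization to 0.064 (non-ATPase) and −0.062 (other caps). The omission of both libraries gave −0.15 (non-ATPase) and −0.56 (assembly), and single omissions −0.157 to 0.021 (non-ATPase). HBC scaling turned the direction of Psma3 (−1.36), Psma4 (−1.33), Psma6 (−1.28), Psma7 (−1.30), Psmb4 (−1.29), Psmc3 (−1.36), Psmd3 (−1.09), Psmd7 (−1.24), Psmd13 (−1.31) and Psmd10 (−0.43). It also turned the sign of 4 members that passed neither without rescaling nor with HBC scaling, Psmb2 (−1.05), Psmb5 (−1.17), Psmd11 (−0.87) and Psmg4 (−0.95). HBC scaling divides all values of a library by the same factor, and it moved the median of all rows from −0.22 to −1.44. The turned signs are therefore part of a shift of the whole table and not particular to these members. The cause of the differences between the other settings was not tested.

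The shared replicate numbers 1 and 4 are not said to pair the samples, and deviations of same-numbered libraries correlated at −0.06 and −0.09 across rows. The ratios kept their direction in every omission. Depth is unknown, and with 3 libraries a group no sample was screened as outlying.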

Other observations

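The remaining member rows held little signal. The pseudogene rows Psmb5-ps and Psmb6-ps2 were at 0 in all 6 libraries, Psmb6-ps reached 0.0535 FPKM in Ctrl replicate 4 only, and the Psmb7-ps2 row, merged with Gm6787, was at 0.511, 0.0717 and 0.418 FPKM in Dox and at 1.12, 0.584 and 1.47 FPKM in Ctrl libraries. Second rows at the Psma6 and Psmd3 loci reached at most 2.53 and 1.05 FPKM. Psmc3ip, which acts in meiotic recombination and is not a proteasome subunit, was at 8.72, 5.79 and 5.61 FPKM in Dox and at 9.80, 9.23 and 12.5 FPKM in Ctrl libraries (limma, adjusted p = 0.0949), and its exons overlap Mlx.

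Among the other marker lists, 0 rose and 3 fell of 5 sustentacular cell markers tested, with summed levels of 1179 to 1968 FPKM in Dox and 1524 to 3371 FPKM in Ctrl libraries. Of 5 globose basal cell markers 1 rose and 2 fell, of 8 myeloid markers 1 rose and 4 fell, of 4 T and NK cell markers 0 rose and 3 fell, and of 5 B and plasma cell markers 0 rose and 3 fell. Of the 5 fibroblast, 4 endothelial and 4 Bowman gland markers tested, 0 passed in limma, and 0 had an unadjusted p below 0.05. The shares over all tested rows were 10.9% higher and 27.2% lower. Endothelial sums were 1.38, 57.5 and 90.2 FPKM in Dox replicates 1, 3 and 4 and 18.7 to 21.3 FPKM in Ctrl libraries.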
